A study of Mus musculus with 11 samples.

Results

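The genes described here are the 8 members of a list of polyamine genes, given by name and looked up by symbol among the 53801 genes counted in the series. They are Odc1, Amd1, Srm and Sms, which encode the enzymes of polyamine synthesis, Oaz1 and Oaz2, which encode antizymes, Azin1, which encodes an antizyme inhibitor, and Sat1, which encodes the enzyme that opens polyamine catabolism. All 8 were found, and all 8 passed the filter on low counts in every comparison. The RNA came from neural progenitor cells (NPCs) of E13.5 mouse brains, grown as neurospheres, which are floating cultures held in a proliferating state by EGF and bFGF. The 11 libraries fell into 3 groups on a mixed C57BL/6 and 129SV background, and every embryo was Smg6 Flox/Flox. Ctr cells were Smg6 Flox/Flox; RosaCreER tg/+ and untreated, and came from 3 embryos (SMH_128, SMH_132 and SMH_133). Ctr + 4-OHT cells were Smg6 Flox/Flox; RosaCreER +/+, so they carried no Cre, and were given 1 µM 4-hydroxytamoxifen (4-OHT) for 3 days; they came from 4 embryos (SMH_125, SMH_126, SMH_129 and SMH_131). Smg6-iKO cells were Smg6 Flox/Flox; RosaCreER tg/+ and given the same 4-OHT, and came from 4 embryos (SMH_127, SMH_128, SMH_132 and SMH_133). RNA was taken 6 days after 4-OHT, and whether these days run from the start or the end of the treatment is not clear from the sources, which also speak of 6 days in 4-OHT. RosaCreER is expressed from the Rosa26 locus in all cell types, and 4-OHT brings its recombinase into the nucleus, where it removes the floxed part of Smg6. SMG6 is the endonuclease of nonsense-mediated mRNA decay (NMD), the pathway that removes transcripts whose stop codon is read as premature. Ctr + 4-OHT matched Smg6-iKO in drug but not in Cre. Ctr matched it in Cre but not in drug, and 3 embryos gave a culture to both Ctr and Smg6-iKO.

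Polyamines are small, positively charged molecules that bind RNA and are needed for translation and cell division. Ornithine decarboxylase (ODC1) makes putrescine, S-adenosylmethionine decarboxylase (AMD1) makes the aminopropyl donor, and spermidine synthase (SRM) and spermine synthase (SMS) join them. Antizyme (OAZ1, OAZ2) binds ODC1 and takes it to the proteasome, and the antizyme inhibitor AZIN1 resembles ODC1, has no decarboxylase activity and takes antizyme away from it. SAT1 acetylates spermidine and spermine, which marks them for breakdown or export. Much of this control is exercised on translation, through upstream open reading frames and a ribosomal frameshift, so the mRNA levels reported here do not give the amounts of the enzymes.

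The frameshift site of the antizymes is shown because it places a stop codon inside the reading frame of both mRNAs. The ribosome has to slip forward by a base there to make full-length antizyme, which it does more often when polyamines are plentiful. The GENCODE M21 annotation on GRCm38 models this shift in transcript Oaz1-207 as a skipped base at position 80828295 of chromosome 10, with 68 codons before it and 159 after it, 227 in all. In Oaz2-206 the skipped base is at position 65686272 of chromosome 9, with 32 codons before it and 157 after it, 189 in all. The 60 bases around each site are given below for the plus strand, from coding exons at chr10:80828265-80828324 for Oaz1 and at chr9:65686242-65686301 for Oaz2. Capitals mark the last codon in the starting frame, the TGA stop and the base that follows it.
Oaz1: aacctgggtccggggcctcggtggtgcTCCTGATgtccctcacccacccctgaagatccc
Oaz2: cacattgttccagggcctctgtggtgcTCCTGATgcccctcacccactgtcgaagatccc
Of these 60 bases, 49 were identical between Oaz1 and Oaz2, and the capitals were among them.

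Other features of the annotated transcripts varied among the members. Transcripts annotated with the NMD biotype were listed for 4 of the 8 genes, 2 each for Odc1 and Azin1 and 1 each for Sat1 and Sms, while 20.5% of 21901 protein-coding genes had any. In the transcript with the longest coding sequence, 5 of the 8 members held at least 1 open reading frame wholly upstream of the start codon. Odc1 had 2, Azin1 had 3, Amd1 had 1 of 6 codons, Sat1 had 1 of 4 codons and Sms had 3. Oaz1, Oaz2 and Srm had none, and 43.3% of 21614 coding genes had such a reading frame. The gene-level counts add all transcripts of a gene, so a change confined to an NMD transcript of low abundance could not be seen in them.

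**Figure D1:**
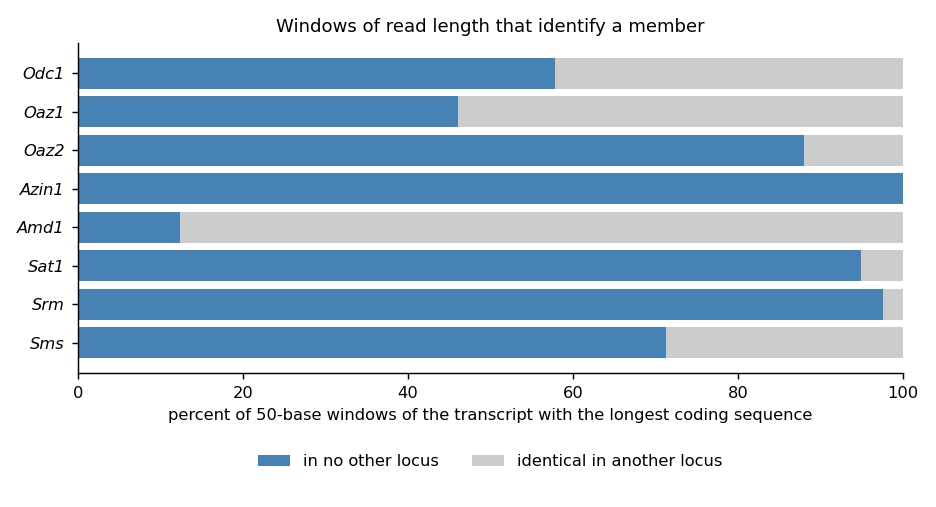
Horizontal bars give, for each member, the percentage of all 50-base windows of the transcript with the longest coding sequence that occur in no other annotated locus (blue) or also occur in one (grey). Azin1 had no shared window, while 87.6% of the windows of Amd1 and 53.9% of those of Oaz1 were shared.

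How much of each gene could be counted differed, since the reads were 50 bases long and reads that mapped to several places were not counted. Azin1 (ENSMUSG00000037458, chr15:38487427-38519266, minus strand) shared none of its 50-base windows with another locus, and Srm (ENSMUSG00000006442, chr4:148591503-148594993, plus strand) shared 2.41%. Sat1 (ENSMUSG00000025283, chrX:155213132-155216449, minus strand) shared 5.08%, and Oaz2 (ENSMUSG00000040652, chr9:65668001-65690300, plus strand) 11.98%. These 4 genes were therefore counted over most of their length.
Copies elsewhere, most of them processed pseudogenes, took up more of the other 4. Sms (ENSMUSG00000071708, chrX:157443855-157492287, minus strand) shared 28.7% of its windows, mainly with Sms-ps, and Odc1 (ENSMUSG00000011179, chr12:17544794-17551505, plus strand) 42.2% with several pseudogenes. Oaz1 (ENSMUSG00000035242, chr10:80826656-80829290, plus strand) shared 53.9% with Oaz1-ps and also overlapped Mir1982 over 74 exon bases. Amd1 (ENSMUSG00000075232, chr10:40287458-40302186, minus strand) shared 87.6%, mostly with the near copy Amd2 and with Amd pseudogenes. The shares given here are those of the transcript with the longest coding sequence. Over all annotated transcripts of the gene they were 78.1% for Amd1, 24.3% for Odc1, 20.1% for Oaz1 and 17.5% for Sms. Reads from shared stretches are missing from the counts of Amd1, Oaz1, Odc1 and Sms, so their levels are understated against those of other genes, and their values are uncertain in this respect.
Few reads were placed on the copies themselves. Reads from the shared stretches were not counted there either, so low values do not show that the copies were little expressed. Counts per 1000000 reads (CPM, scaled for library composition by TMM normalisation) were at most 1.01 for Oaz1-ps, 0.513 for Sms-ps, 0.503 for Oaz2-ps and 0.312 for Amd2 in any library.

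Between 26418249 and 33756875 reads were counted on genes in a library. The gene-level count of Smg6 overlapped between the groups, with 74.4 ± 4.96 CPM (SD, n = 3) in Ctr, 69.3 ± 3.22 (n = 4) in Ctr + 4-OHT and 66.0 ± 4.57 (n = 4) in Smg6-iKO. Within the 3 shared embryos it was lower in the Smg6-iKO culture each time, at 69.4 and 62.3 CPM in SMH_128, 79.4 and 71.9 in SMH_132 and 74.3 and 67.5 in SMH_133. The log2 fold change of Smg6 against Ctr was -0.17 (adjusted p = 0.148), and -0.15 (adjusted p = 0.0430) with the embryo as a block, while against Ctr + 4-OHT it was -0.06 (adjusted p = 0.703). With the block the group effect rests on the 3 embryos that gave both cultures, since SMH_127 gave no Ctr culture. A gene-level count does not separate the floxed part from the rest of the gene, so it does not measure how much of it was removed. Esr1, the gene whose ligand-binding part CreER carries, was at 4.29 ± 0.324 CPM in Ctr and 4.22 ± 0.371 in Smg6-iKO but at 0.135 ± 0.105 in Ctr + 4-OHT, as the Cre genotypes in the labels give it. All 10 markers of neural stem and progenitor cells were above 1 CPM in every group, and their summed level was 5109 to 5306 CPM in Ctr, 4525 to 5537 in Ctr + 4-OHT and 4413 to 4986 in Smg6-iKO. All 6 neuronal markers were also present, with sums of 1737 to 1916, 1598 to 2600 and 2025 to 2336 CPM in the same order. Smg6-iKO thus lay below Ctr in the progenitor sum and above it in the neuronal sum without overlap, while Ctr + 4-OHT overlapped both. All 5 astrocyte markers were present, with a sum of 1316 to 1948 over the libraries. The 6 markers of microglia and macrophages summed to at most 1.87 CPM and the 5 of red cells to at most 0.128, while the 5 mesenchymal markers ranged from 90.5 to 547.5 CPM within Smg6-iKO alone.

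Per kilobase of merged exon, Srm and Azin1 stood highest, at 42.9 and 42.6 CPM per kb as means over the 11 libraries. Their ranges, from 38.2 to 49.5 and from 37.8 to 46.8, overlapped, so their order was not resolved. Odc1 followed at 22.3 and Oaz1 at 12.8, with ranges of 18.6 to 26.6 and 11.5 to 14.2 that met neither each other nor their neighbours. Oaz2 came next at 9.69, with its highest library at 11.2, below the lowest of Oaz1. Sat1 followed at 6.86 and Sms at 6.75, with the range of Sms, 5.93 to 7.71, inside that of Sat1, 5.26 to 8.59, and Amd1 was lowest at 3.59. The places of Amd1, Oaz1, Odc1 and Sms in this order carry the loss of shared reads described above. Merged exons also hold bases outside the transcript with the longest coding sequence. They span 2774 bases against 896 in that transcript for Sat1, 2558 against 1044 for Oaz1, 2990 against 1843 for Oaz2 and 6010 against 3717 for Sms. The order is therefore tied to this divisor, and the places of Sat1, Oaz1, Oaz2 and Sms are uncertain. In raw counts a library held between 308 and 427 reads of Amd1 and between 6178 and 9978 of Azin1.
The coefficient of variation of the members over the 11 libraries ran from 6.34% for Oaz1 to 14.5% for Sat1, and all but Sat1 lay below the median over 18123 expressed genes, 12.6%. That median also covers genes with few counts, such as Oaz3 with 0 to 18 reads in a library, and was not matched for level. Counting error alone would give 5.20% for Amd1, whose observed value was 7.09%, but 1.13% for Azin1, whose observed value was 6.93%.

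**Figure D2:**
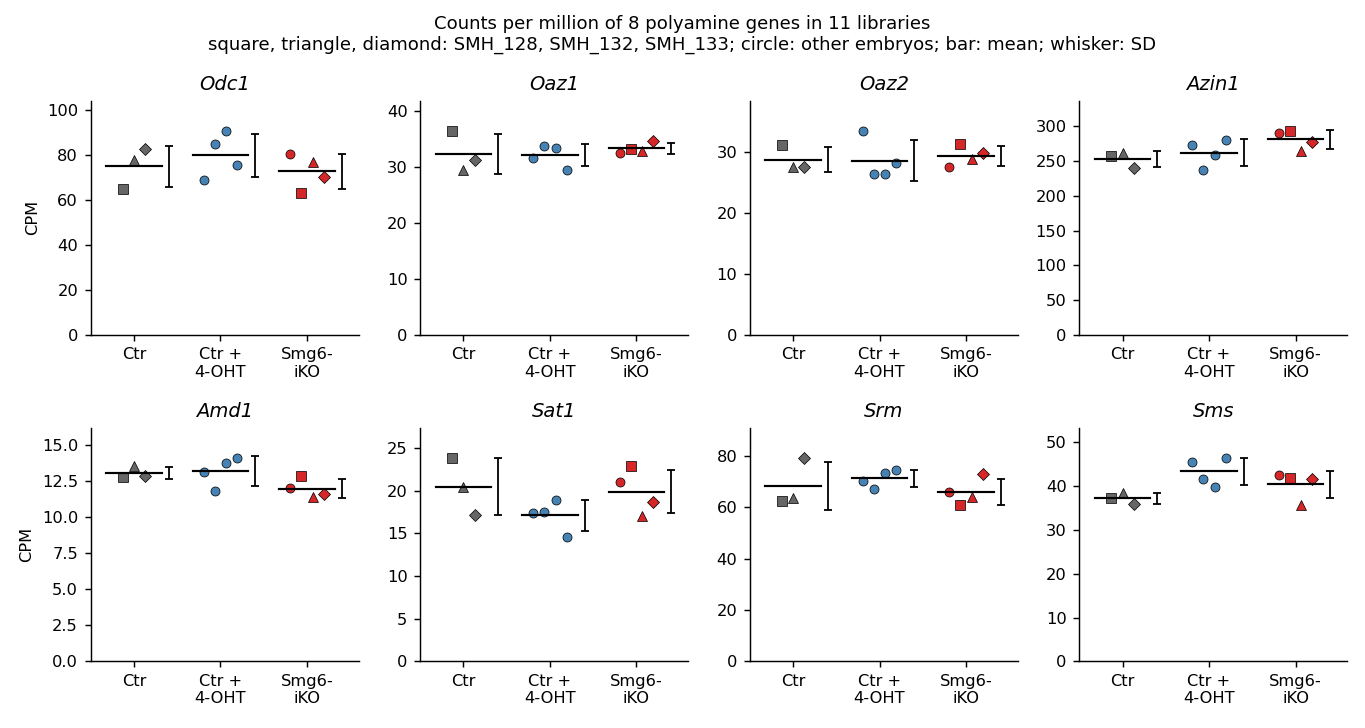
Each panel gives the CPM of a member in the 11 libraries (vertical axis, starting at 0) by group, with a bar at the mean and a whisker of 1 SD beside it; squares, triangles and diamonds are SMH_128, SMH_132 and SMH_133, and circles are embryos that gave a single library. The groups overlap in every panel except for Azin1 between Ctr and Smg6-iKO and Sms between Ctr and Ctr + 4-OHT.

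Whether deletion of Smg6 altered the mRNA of the polyamine genes was asked by comparing Smg6-iKO with each control. No member passed edgeR's quasi-likelihood test at an adjusted p under 0.05 in either comparison. Against Ctr + 4-OHT, 0 of 8 members were called, where 1.17% of the 17558 genes tested were, and 0 of 8 had an unadjusted p under 0.05, where 16.7% of genes did. Against Ctr, 0 of 8 were called, where 9.25% of 17974 genes were, and 1 of 8, Azin1, had an unadjusted p under 0.05, where 26.9% of genes did. DESeq2's Wald test also called 0 of 8 in each, where it called 6.06% and 16.9% of the genes with an adjusted p, and limma-voom 0 of 8, where it called 1.11% and 8.97%. The fitted log2 fold changes ran from -0.13 to 0.23 against Ctr + 4-OHT, with a median of -0.02, and from -0.12 to 0.15 against Ctr, with a median of 0.00. Over all genes these medians were 0.01 and 0.01. The 95% confidence intervals of all 8 members lay between 0.784-fold and 1.38-fold against Ctr + 4-OHT and between 0.805-fold and 1.22-fold against Ctr. Changes of the mRNA beyond those bounds lay outside the intervals of the members, and smaller ones in either direction lay within the interval of at least 1 member. In RNA from whole cultures, fewer cells of a type and less RNA per cell cannot be told apart.

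**Figure D3:**
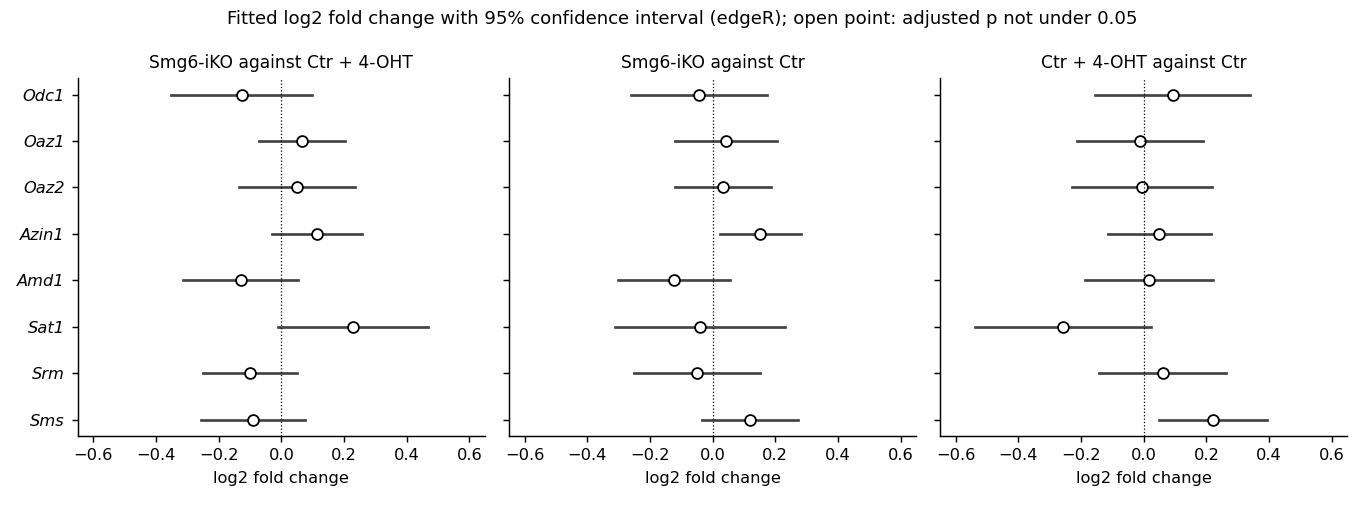
Points give the fitted log2 fold change of each member in the 3 comparisons and horizontal lines its 95% confidence interval from edgeR. All points are open, since no adjusted p was under 0.05, and 2 intervals leave out 0, those of Azin1 for Smg6-iKO against Ctr and of Sms for Ctr + 4-OHT against Ctr.

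Odc1, the first and most tightly controlled enzyme of the pathway, was at 64.8, 77.8 and 82.6 CPM in Ctr libraries SMH_128, SMH_132 and SMH_133. It was at 69.1, 85.1, 90.6 and 75.5 CPM in Ctr + 4-OHT libraries SMH_125, SMH_126, SMH_129 and SMH_131. In Smg6-iKO it was at 80.6, 63.2, 77.0 and 70.4 CPM in SMH_127, SMH_128, SMH_132 and SMH_133, and later values keep this order of embryos. The groups overlapped, and the lowest value of both Ctr and Smg6-iKO came from SMH_128. The log2 fold change of Smg6-iKO was -0.13 (95% interval -0.35 to 0.10, adjusted p = 0.576) against Ctr + 4-OHT and -0.04 (-0.26 to 0.17, adjusted p = 0.819) against Ctr. Within the 3 shared embryos the Smg6-iKO culture lay below its Ctr culture each time, by log2 differences of -0.04, -0.02 and -0.23.

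Amd1, which supplies the decarboxylated S-adenosylmethionine for both later steps, had 12.8, 13.6 and 12.9 CPM in the Ctr libraries. It had 13.1, 11.8, 13.8 and 14.1 CPM in Ctr + 4-OHT and 12.02, 12.9, 11.4 and 11.6 CPM in Smg6-iKO. Of the 4 Smg6-iKO values, 3 were below every Ctr value, and SMH_128 was not. On the log2 scale Smg6-iKO differed by -0.13 (-0.31 to 0.05, adjusted p = 0.471) against Ctr + 4-OHT and -0.12 (-0.30 to 0.06, adjusted p = 0.358) against Ctr. In the transcript of Amd1 with the longest coding sequence 12.4% of the windows were its own, and over all its annotated transcripts 78.1% were shared. The gene-level counts also add reads from its other transcripts.

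Srm, which makes spermidine, had 62.6, 63.4 and 79.1 CPM in Ctr. It had 70.3, 66.9, 73.4 and 74.4 CPM in Ctr + 4-OHT and 65.8, 61.1, 64.1 and 73.1 CPM in Smg6-iKO. SMH_133 held the highest value of both groups it gave a culture to. The fitted log2 fold change was -0.10 (-0.25 to 0.05, adjusted p = 0.498) against Ctr + 4-OHT and -0.05 (-0.25 to 0.15, adjusted p = 0.779) against Ctr.

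Sms, the X-linked gene for the enzyme that makes spermine, had 37.2, 38.4 and 35.9 CPM in Ctr. It had 45.5, 41.5, 39.8 and 46.3 CPM in Ctr + 4-OHT and 42.5, 41.7, 35.6 and 41.5 CPM in Smg6-iKO. Every Ctr + 4-OHT value was above every Ctr value, and Smg6-iKO lay across the range of both, with SMH_132 at its low end. The log2 fold change of Smg6-iKO was -0.09 (-0.26 to 0.08, adjusted p = 0.594) against Ctr + 4-OHT and 0.12 (-0.03 to 0.27, adjusted p = 0.303) against Ctr.

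Of the antizymes, Oaz1 had 36.4, 29.5 and 31.3 CPM in Ctr, 31.7, 33.9, 33.3 and 29.5 CPM in Ctr + 4-OHT, and 32.5, 33.2, 32.9 and 34.7 CPM in Smg6-iKO. The Smg6-iKO values spanned the narrowest range and lay inside that of Ctr. The log2 fold change was 0.07 (-0.07 to 0.20, adjusted p = 0.643) against Ctr + 4-OHT and 0.04 (-0.12 to 0.21, adjusted p = 0.763) against Ctr.
Oaz2 had 31.2, 27.6 and 27.6 CPM in Ctr, 33.5, 26.4, 26.5 and 28.3 CPM in Ctr + 4-OHT, and 27.6, 31.4, 29.0 and 29.9 CPM in Smg6-iKO. Its groups overlapped throughout, and its highest library was SMH_125 of Ctr + 4-OHT. Within the 3 shared embryos Oaz2 was higher in the Smg6-iKO culture each time, by log2 differences of 0.01, 0.07 and 0.12. On the log2 scale Smg6-iKO differed by 0.05 (-0.13 to 0.24, adjusted p = 0.809) against Ctr + 4-OHT and 0.03 (-0.12 to 0.19, adjusted p = 0.808) against Ctr. For both mRNAs with a stop codon inside the reading frame, the interval covered 0 in each comparison.

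Azin1 had 257, 262 and 240.0 CPM in Ctr. It had 273, 237, 259 and 280.4 CPM in Ctr + 4-OHT and 291, 293, 264 and 278 CPM in Smg6-iKO. Every Smg6-iKO value was above every Ctr value, narrowly so for SMH_132, while the range of Ctr + 4-OHT reached into both. It was 1 of 8 members, and the sole one, whose Smg6-iKO libraries all lay above those of Ctr, where 11.4% of the genes tested did, and 0 of 8 lay below, where 11.9% did. Against Ctr + 4-OHT, 0 of 8 members lay wholly above, where 5.03% of genes did, and 0 of 8 wholly below, where 5.99% did. Its fitted log2 fold change was 0.15 (0.02 to 0.28, unadjusted p = 0.0248, adjusted p = 0.124) against Ctr, or 1.11-fold, and 0.11 (-0.03 to 0.26, adjusted p = 0.411) against Ctr + 4-OHT. Within the shared embryos Azin1 was higher in the Smg6-iKO culture in 3 of 3, by 0.19, 0.01 and 0.21 on the log2 scale. With the embryo as a block, a fit whose group effect rests on these 3 embryos, the adjusted p was 0.0727. The difference did not pass the threshold in any of these fits. The sums of progenitor and neuronal markers also separated Smg6-iKO from Ctr, as given above, and their part in the Azin1 values was not tested.

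Sat1, X-linked and the catabolic member of the list, had 23.8, 20.4 and 17.1 CPM in Ctr. It had 17.4, 17.5, 18.9 and 14.6 CPM in Ctr + 4-OHT and 21.1, 22.9, 17.1 and 18.6 CPM in Smg6-iKO. It was the most variable member, with SMH_128 highest in both groups it belonged to and SMH_131 of Ctr + 4-OHT lowest of all. The log2 fold change was 0.23 (-0.01 to 0.47, adjusted p = 0.317) against Ctr + 4-OHT, the largest of the members there, and -0.04 (-0.31 to 0.23, adjusted p = 0.872) against Ctr. Summed mesenchymal markers were highest in Smg6-iKO SMH_127, at 547.5 CPM, and lowest in Smg6-iKO SMH_132, at 90.5 CPM, and were at 345 CPM in SMH_131. Their part in the Sat1 values was not tested.
Both sexes were present in every group, judged by Xist and Y-linked transcripts, with 4 female and 7 male libraries. Sat1 was at 18.0 ± 0.892 CPM (SD, n = 4) in the female libraries and 19.6 ± 3.34 (n = 7) in the male ones, and Sms at 40.7 ± 3.99 and 40.5 ± 3.63. A term for sex in the fit called no member.

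Ctr + 4-OHT against Ctr set cells with the drug and no Cre against cells with Cre and no drug. This comparison of controls cannot tell the drug and the genotype apart. No group held both Cre and 4-OHT without floxed Smg6, so their joint effect without deletion was not measured. By the quasi-likelihood test 0 of 8 members were called, where 0.221% of 17665 genes were, and DESeq2 and limma-voom also called 0, where they called 0.825% and 0.198%. By unadjusted p, 1 of 8 members was under 0.05, where 8.28% of genes were. It was Sms, with a log2 fold change of 0.22 (0.05 to 0.39, unadjusted p = 0.0176, adjusted p = 0.471). It was also the 1 member of 8 whose Ctr + 4-OHT libraries all lay above those of Ctr, where 3.80% of genes did, and 0 of 8 lay below, where 4.91% did. The sum of 6 oligodendrocyte-lineage markers, of which Mog was under 1 CPM, also lay higher in every Ctr + 4-OHT library, narrowly so, at 400.2 to 538 CPM against 367 to 399.6 in Ctr. It was at 352 to 429 CPM in Smg6-iKO, and its part in the Sms values was not tested. Sat1 had the largest negative value, -0.26 (-0.54 to 0.02, adjusted p = 0.646). Each of the 3 comparisons shares a group of libraries with both others, so their values are not independent.

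**Figure D4:**
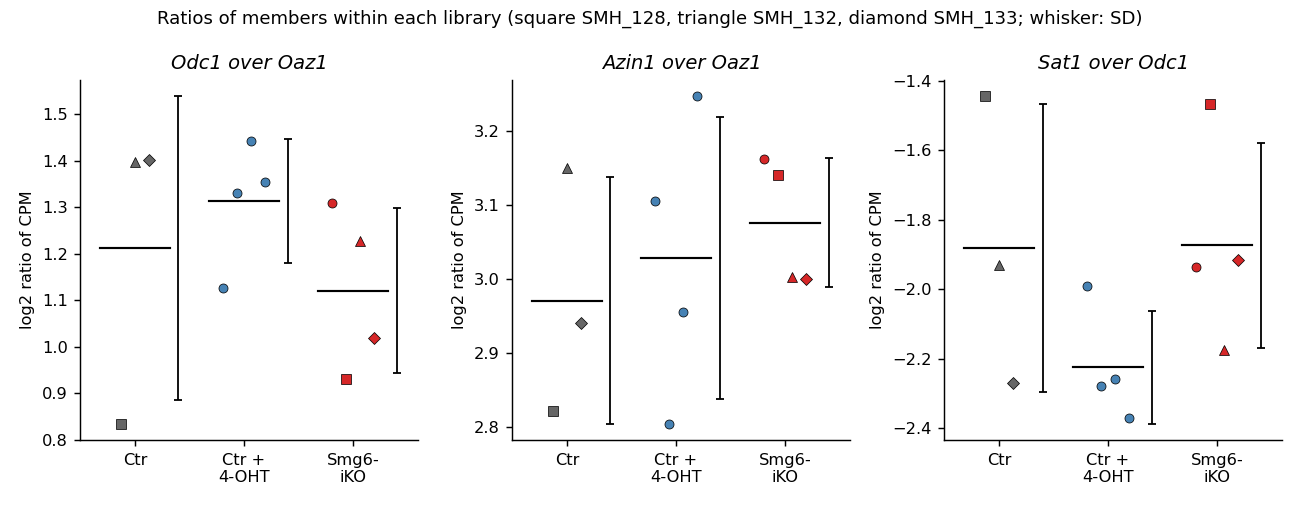
Points give the log2 ratio of the CPM of a pair of members within each library, by group, with a bar at the mean and a whisker of 1 SD; the vertical axes do not start at 0 and differ between panels. The groups overlap in all 3 panels, and SMH_128 (squares) is at one end of the Odc1 over Oaz1 and Sat1 over Odc1 values in both groups it belongs to.

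Since antizyme acts on ODC1 and AZIN1 on antizyme, ratios of their mRNAs were compared within libraries, with a two-sided exact permutation test adjusted over 9 tests. The log2 ratio of Odc1 over Oaz1 was 0.83, 1.40 and 1.40 in Ctr, 1.13, 1.33, 1.44 and 1.35 in Ctr + 4-OHT, and 1.31, 0.93, 1.23 and 1.02 in Smg6-iKO. Smg6-iKO differed from Ctr + 4-OHT by -0.19 on the log2 scale (exact p = 0.143, adjusted p = 0.514) and from Ctr by -0.09 (exact p = 0.743, adjusted p = 0.90). The low Ctr value was that of SMH_128, whose Smg6-iKO culture was also the lowest of its group.
The log2 ratio of Azin1 over Oaz1 ranged from 2.82 to 3.15 in Ctr, from 2.81 to 3.25 in Ctr + 4-OHT and from 3.00 to 3.16 in Smg6-iKO. It differed by 0.05 from Ctr + 4-OHT and by 0.11 from Ctr, with exact p of 0.714 and 0.286. The log2 ratio of Sat1 over Odc1, catabolism against synthesis, was -1.44, -1.93 and -2.27 in Ctr, -1.99, -2.28, -2.26 and -2.37 in Ctr + 4-OHT, and -1.94, -1.47, -2.17 and -1.92 in Smg6-iKO. Smg6-iKO exceeded Ctr + 4-OHT by 0.35 (exact p = 0.0571, adjusted p = 0.514) and differed from Ctr by 0.01 (exact p = 0.971). With 4 libraries against 4 the smallest exact p is 0.0286, and with 4 against 3 it is 0.0571. The smallest adjusted p over the 9 tests is 0.0571, so that no ratio could pass a threshold of 0.05 in any comparison, and the ratios are given for their values.

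Over the 11 libraries some members went together and others apart. The strongest of the 28 pairings of members in either direction was Odc1 with Oaz2, with a Pearson r of -0.89 and a Spearman rho of -0.95 of log2 CPM. It was picked as the most extreme pair, the libraries came from 8 embryos, and every value shares the library scaling, so it is given as a description. The 3 libraries lowest in Odc1, both of SMH_128 and that of SMH_125, were the 3 highest in Oaz2, and the 2 highest in Odc1, SMH_129 and SMH_126, were the 2 lowest in Oaz2. Without the 2 libraries farthest from the median of Odc1 r was -0.88 over 9 libraries, and after the group means were taken off it was -0.91. Sat1 with Srm had r = -0.69, and Azin1 with Sms had the highest positive value, 0.53. Odc1 with Oaz1, whose product acts on ODC1, had r = -0.28.
The genes most like each member in log2 CPM over the 11 libraries were also picked from all expressed genes, which makes high values common. For Odc1 they were Rnasek (r = 0.91) and Gm19238 (0.86), for Amd1 Hnrnph2 (0.94) and Eif4e (0.94), for Srm Abcf2 (0.97) and Psmd3 (0.96), and for Sms Smim13 (0.94) and Brox (0.93). For Oaz1 they were Gm43909 (0.89) and Zfand3 (0.88), for Oaz2 Slc38a10 (0.89) and Rnf41 (0.87), for Azin1 Micall2 (0.95) and Erich6 (0.93), and for Sat1 Ttc39b (0.93) and Angptl2 (0.92). No gene had r above 0.9 with Oaz1 or Oaz2, while 25 had it with Amd1 and 11 with Srm.

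**Figure D5:**
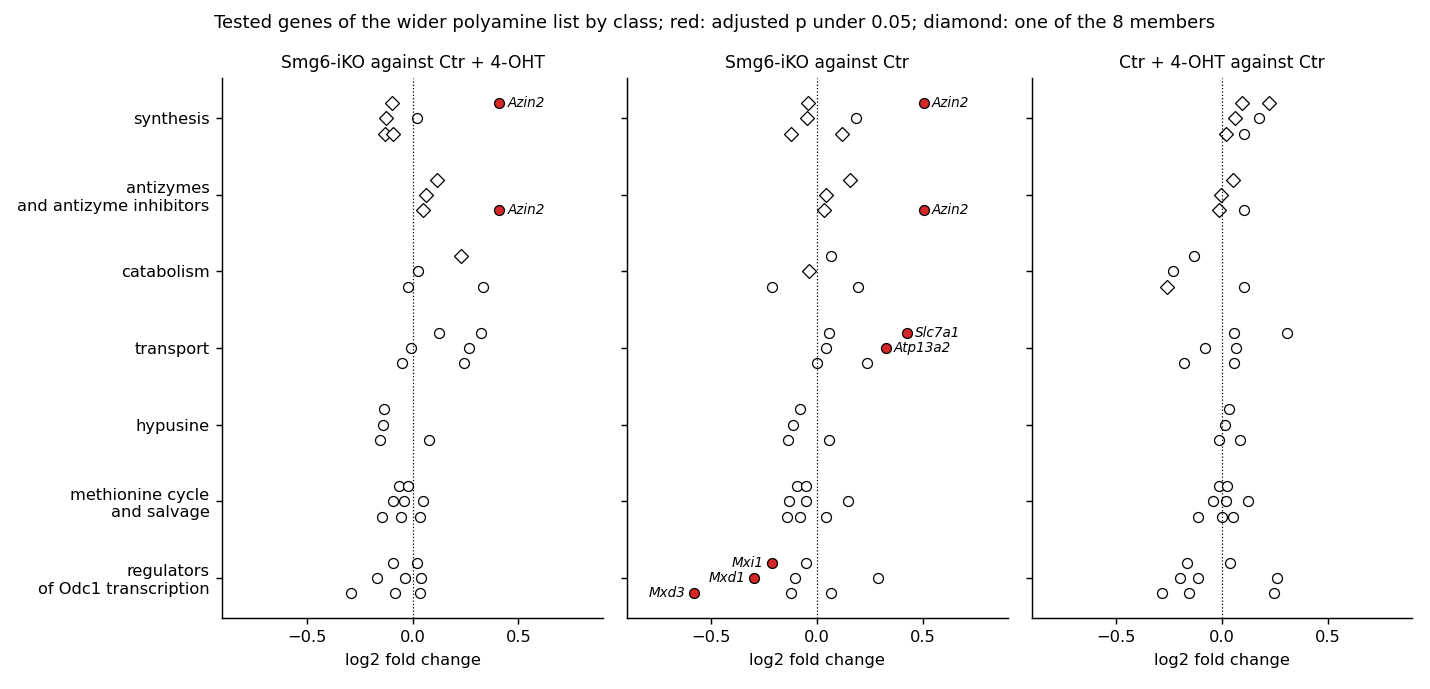
Points give the fitted log2 fold change of the tested genes of the wider polyamine list by class in the 3 comparisons; diamonds are the 8 members and red points passed an adjusted p under 0.05. Azin2, which stands in 2 classes, is the only red point against Ctr + 4-OHT, 6 genes are red against Ctr, and none is red between the controls.

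The members belong to a wider list of 50 genes of polyamine synthesis, catabolism, transport, hypusine formation, methionine salvage and the control of Odc1 transcription, of which 39 were tested in each comparison. Against Ctr + 4-OHT, 1 rose, where 0.757% of all genes did, and 0 fell, where 0.416% did, and 6 of the 39 had an unadjusted p under 0.05, where 16.7% of all genes did. The median log2 fold change was -0.02, with 0.01 over all genes. Against Ctr, 3 rose and 3 fell, where 4.27% and 4.98% of all genes did, with medians of -0.04 and 0.01, and 9 of the 39 had an unadjusted p under 0.05, where 26.9% did. Between the controls 0 of the 39 rose, where 0.0396% of all genes did, and 0 fell, where 0.181% did, while 4 of the 39 had an unadjusted p under 0.05, where 8.28% of all genes did. The medians there were 0.02 over the list and 0.00 over all genes.

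Azin2, which encodes the other antizyme inhibitor, was the gene that rose against both controls. It had 18.0, 16.3 and 17.3 CPM in Ctr and 18.0, 19.6, 18.9 and 17.4 CPM in Ctr + 4-OHT. It had 24.4, 26.6, 23.9 and 22.7 CPM in Smg6-iKO, so that every Smg6-iKO value was above every control value. Of all genes tested, 5.03% lay wholly above Ctr + 4-OHT and 11.4% wholly above Ctr. On the log2 scale Smg6-iKO differed by 0.41 ± 0.07 (SE, adjusted p = 0.0267) against Ctr + 4-OHT and 0.50 ± 0.08 (adjusted p = 0.00452) against Ctr by the quasi-likelihood test. The call against Ctr + 4-OHT was lost without any single library but SMH_126 (adjusted p of 0.0508 to 0.0887) and with a term for sex (adjusted p = 0.0877), while the log2 fold change stayed between 0.36 and 0.44. Against Ctr it was called in 18 of 18 alternatives. The sums of progenitor and neuronal markers also separated Smg6-iKO from Ctr, and their part in the Azin2 values was not tested. Azin2 shared none of its windows with another locus and had no annotated NMD transcript. At 6.06 ± 0.406 CPM per kb in Smg6-iKO (SD, n = 4) it stood below Azin1, at 45.0 ± 2.13.

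In the other classes the calls of the quasi-likelihood test were against Ctr only, the comparison in which the sums of progenitor and neuronal markers also did not overlap, whose part in these calls was not tested. Among transporters, Slc7a1, which imports arginine, the precursor of ornithine, rose by a log2 fold change of 0.42 ± 0.07 (SE, adjusted p = 0.00727), and Atp13a2, which exports polyamines from lysosomes, by 0.32 ± 0.08 (adjusted p = 0.0286). Slc7a1 was called in 18 of 18 alternatives, and Atp13a2 in 13, its call being lost in the joint fit and without any of 4 single libraries (adjusted p up to 0.0978). Against Ctr + 4-OHT the log2 fold changes were 0.12 for Slc7a1 and 0.27 for Atp13a2 (adjusted p = 0.601 and 0.120). For Ctr + 4-OHT against Ctr they were 0.31 and 0.07 (adjusted p = 0.521 and 0.873). Slc7a1 was at 144 ± 10.8 CPM in Ctr, 178 ± 27.5 in Ctr + 4-OHT and 193 ± 12.9 in Smg6-iKO, and Atp13a2 at 127.8 ± 13.48, 134 ± 13.45 and 159.8 ± 9.31.
Of the 8 regulators of Odc1 transcription, 3 antagonists of MYC fell against Ctr, where 4.98% of all genes did. They were Mxd3, by 0.58 on the log2 scale (adjusted p = 0.00793), Mxd1, by 0.30 (adjusted p = 0.0242), and Mxi1, by 0.22 (adjusted p = 0.0378). The call was made in 18 of 18 alternatives for Mxd3, in 13 for Mxd1 and in 10 for Mxi1, and those of Mxd1 and Mxi1 were lost in a joint fit of all 11 libraries. Mxd4, the fourth antagonist of this family on the list, had a log2 fold change of -0.10 (adjusted p = 0.409). Mxd3 was at 22.1 ± 2.99 CPM in Ctr, 18.1 ± 1.68 in Ctr + 4-OHT and 14.7 ± 1.00 in Smg6-iKO, and Smg6-iKO differed from Ctr + 4-OHT by -0.29 on the log2 scale (adjusted p = 0.137). Against Ctr + 4-OHT the log2 fold change was -0.09 (adjusted p = 0.752) for Mxd1 and -0.04 (adjusted p = 0.879) for Mxi1. For Ctr + 4-OHT against Ctr it was -0.28 for Mxd3, -0.20 for Mxd1 and -0.17 for Mxi1 (adjusted p = 0.533, 0.730 and 0.697). Among catabolic genes, Smox, the spermine oxidase, had log2 fold changes of 0.34 (adjusted p = 0.110) against Ctr + 4-OHT and 0.19 (adjusted p = 0.200) against Ctr. DESeq2's Wald test, which called 6.06% of genes against Ctr + 4-OHT, also called Smox, at 0.32 (adjusted p = 0.0341), and Mxd3, at -0.30 (adjusted p = 0.0386), there, beside Azin2. The Smg6-iKO libraries did not overlap those of Ctr + 4-OHT for either gene, nor for Atp13a2. Of all genes tested there, 5.03% lay wholly above and 5.99% wholly below. The nearest values of Smg6-iKO and Ctr + 4-OHT were 45.3 and 44.7 CPM for Smox, 15.8 and 16.3 for Mxd3 and 149.6 and 147.8 for Atp13a2. With the embryo as a block, which raised the genes called against Ctr from 1663 to 3854, or 21.4% of those tested, Smox (0.25, adjusted p = 0.00366), Mat2a (0.15, adjusted p = 0.0319) and Myc (0.30, adjusted p = 0.0020) also passed. Without the block Mat2a, which makes S-adenosylmethionine, had 0.15 (adjusted p = 0.196) and Myc had 0.29 (adjusted p = 0.163). Myc was at 32.3 ± 4.79 CPM in Ctr, 38.7 ± 5.72 in Ctr + 4-OHT and 39.3 ± 5.89 in Smg6-iKO. The log2 fold change against Ctr + 4-OHT was 0.03 (adjusted p = 0.922) for Myc and 0.04 (adjusted p = 0.790) for Mat2a. The 4 hypusine genes, which modify or are the translation factor that carries a spermidine-derived residue, had no call in any comparison, and Dohh had their largest change, -0.15 (adjusted p = 0.473) against Ctr + 4-OHT.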

How the data were processed

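Total RNA was depleted of ribosomal RNA and sequenced as stranded single reads of 50 bases, and the authors used STAR 2.5.4b to map them to GRCm38. The deposited values are raw counts per gene from featureCounts 1.5.0 with the Ensembl 92 annotation; reads mapped to several positions or genes were not counted. Symbols, positions and transcripts were taken from GENCODE M21, which matched 53706 of 53801 identifiers. Groups followed the sample titles. Counts were tested with edgeR 4.0.16 in R 4.3.3 (filterByExpr, TMM, quasi-likelihood test, Benjamini-Hochberg adjustment over all genes, adjusted p under 0.05), each comparison on its own 2 groups. CPM used TMM factors over 11 libraries, and log2 CPM a prior count of 2. Ratios were tested with scipy 1.17.1. Depth was 26418249 to 33756875 counts per library. No libraries of a group were duplicates, with a chi-square per gene of 11.0 to 43.0. Ctr and Smg6-iKO libraries of the same embryo deviated together from their group means (r = 0.328, 0.399 and 0.425, with 0.095 or less between different embryos), and the embryo entered as a block in an alternative. Smg6-iKO SMH_127 was alone in its block, so it did not enter the group effect there.

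The members and the wider list were chosen with earlier results of these data known. Genes of the wider list were named when called in any comparison or when their fold change was the largest of a class among non-members. Alternatives were DESeq2 1.42.0 size factors and Wald test, limma-voom (limma 3.58.1), upper-quartile factors, no filter, a minimum of 10 counts per library, a joint fit of all 11 libraries, a length correction, a sex term, the embryo block and each library left out. The fits were also tested on simulated data, in which 200 genes had been changed.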

Additional observations from a re-analysis of the deposited data

Results flagged for a closer look

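In Smg6-iKO, the Sms value of SMH_132 was 35.6 CPM, while the other 3 libraries were between 41.5 and 42.5 CPM. Its gap to the nearest library was 0.860 of the range of the group, which passed Dixon's criterion for 4 values. The Ctr culture of the same embryo had 38.4 CPM, the highest of its group. Chance alone flags about 1 in 20 groups, and this was the 1 flag among 22 sets of 4 values examined (8 members and 3 ratios in the groups of 4).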

How the results depend on the processing

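The 8 members stayed without a call in all 3 comparisons under every alternative run, with a lowest adjusted p of 0.0659 over 408 fold changes. Of these 408, 388 kept their direction and 20 reversed, and the cause was not tested. Apart from Oaz2 for Ctr + 4-OHT against Ctr with no filter on low counts (0.0019), the reversals came from leaving out a library. Without a single library, log2 fold changes against Ctr in Smg6-iKO ranged from -0.14 to 0.027 for Odc1, -0.032 to 0.14 for Oaz1, -0.0071 to 0.096 for Oaz2, -0.16 to 0.086 for Sat1 and -0.11 to 0.064 for Srm. In Ctr + 4-OHT against Ctr they ranged from -0.0030 to 0.17 for Odc1, -0.075 to 0.078 for Oaz1, -0.083 to 0.054 for Oaz2 and -0.0092 to 0.067 for Amd1. The differences of log2 ratios ranged from -0.28 to 0.0047 for Odc1 over Oaz1 and from -0.19 to 0.23 for Sat1 over Odc1 for Smg6-iKO against Ctr, from -0.087 to 0.20 for Odc1 over Oaz1 and -0.017 to 0.15 for Azin1 over Oaz1 between the controls, and from -0.026 to 0.12 for Azin1 over Oaz1 for Smg6-iKO against Ctr + 4-OHT.

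The 1 call of the wider list against Ctr + 4-OHT became 3 (Azin2, Smox and Mxd3) with DESeq2's Wald test, 0 with a term for sex and between 0 and 1 with a library left out. The 6 calls against Ctr became 3 in a joint fit of all 11 libraries and between 3 and 6 with a library left out. With the embryo as a block they became 9, and 10 with the block and the length correction together. Among these 6, Azin2, Slc7a1 and Mxd3 were called in 18 of 18 alternatives, Atp13a2 and Mxd1 in 13 and Mxi1 in 10. Each of the last 3 lost its call in the joint fit and without Ctr SMH_128, Ctr SMH_132 or Smg6-iKO SMH_133. Atp13a2 also lost it without Smg6-iKO SMH_132 and Mxd1 without Smg6-iKO SMH_127, and Mxi1 without either of these, without Ctr SMH_133 or with upper-quartile factors; the highest adjusted p were 0.0978, 0.166 and 0.189. With the block the log2 difference was -0.15 for Odc1 over Oaz1, 0.077 for Azin1 over Oaz1 and 0.029 for Sat1 over Odc1 (exact p of 0.50, 0.75 and 1.00), where 3 pairs allow no p below 0.25.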
